A study of Mus musculus with 12 samples.

Results

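The 32 genes described here are the small structured nuclear RNAs and the replication-type histone genes detected in the medial prefrontal cortex (mPFC) of mice: 14 small nucleolar RNAs (snoRNAs), 5 small nuclear RNAs (snRNAs), 3 small Cajal body RNAs (scaRNAs), the 7SK RNA gene Rn7sk and 9 genes whose symbols begin with Hist. They were chosen by class in the GENCODE M21 annotation and by level, with at least 1 FPKM in 3 or more of the 12 libraries. FPKM is fragments per kilobase of exon, scaled to the depth of the library. Of 17283 genes in the table, 36 belonged to these classes and 32 passed the level. The level set no direction between groups, since each of the 32 also passed with any 1 group left out. The 4 genes just outside were histone genes, with a third-highest library of 0.683 FPKM for Hist2h4, 0.634 for Hist1h2be, 0.583 for Hist1h1e and 0.425 for Hist1h2ac. Just inside, the third-highest library held 1.62 FPKM for Hist2h3c2, 1.67 for Snora30 and 2.25 for Gm23458. GENCODE lists 1507 snoRNA genes, 1385 snRNA genes, 51 scaRNA genes and 70 Hist genes, so most were not analysed here, among them Rmrp, Rpph1, Terc and the Rnu6 and Rnu1b1 genes. None of the 17283 genes had a value of 0 in any library. A gene without fragments in even 1 library was thus absent from the start. A small RNA missing from a whole group could therefore not be among the 32.

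Box C/D snoRNAs guide 2'-O-methylation and box H/ACA snoRNAs guide pseudouridylation, mostly of ribosomal RNA, while scaRNAs guide the same modifications on spliceosomal snRNAs. Most mammalian snoRNAs are cut from introns of a host gene, often one that encodes a ribosomal protein or another translation factor, so that a snoRNA and the mRNA of its host arise from a single transcript. The snRNAs form the spliceosome, and 7SK holds the transcription elongation factor P-TEFb in an inactive particle. Replication-type histone mRNAs usually end in a conserved stem-loop in place of a poly(A) tail and are made in S phase, although several of these genes also give polyadenylated mRNAs in cells that no longer divide, such as neurons.

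RNA came from mPFC of C57 mice (labelled WT) and of BTBR mice, whose label is inbred strain and which the study treats as an autism model. Mice of each strain received intraperitoneal injections of the DMSO solvent (vehicle) or of astragaloside IV (ASIV, a plant saponin) for 7 days. The 4 groups of 3 libraries are called C57 vehicle, C57 ASIV, BTBR vehicle and BTBR ASIV. The stated aim concerned an effect of ASIV on neurotransmission in BTBR mice. Nothing in the sources used here gives age, sex or dose, and the labels call the replicates parallel samples without naming animals, so p-values measure the spread between these libraries, which may be technical. In whole tissue, fewer cells of a type and less RNA per cell cannot be told apart.

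The libraries held 16166328 to 18660039 fragments, recovered from the steps in the FPKM values. On an RNA of 80 bases 1 fragment was worth 0.670 to 0.773 FPKM, on 130 bases 0.412 to 0.476 and on 1000 bases 0.0536 to 0.0619. The small RNAs were therefore seen at very low depth. The mean number of fragments per library was 3.0 to 49.3 for the snoRNAs, 3.92 to 15.8 for the snRNAs, 4.58 to 15 for the scaRNAs, 24.5 for Rn7sk and 14.3 to 595.6 for the histone genes. Fewer than 20 fragments per library stood behind 12 of 14 snoRNAs, 5 of 5 snRNAs, 3 of 3 scaRNAs and 2 of 9 histone genes. How the libraries were selected for poly(A) or cleared of rRNA, and the shortest fragment kept, were not stated in those sources. A level of a small RNA here is therefore the level of what these libraries captured, not of the mature RNA. For a small RNA inside an intron it may include fragments of the host intron, and that part was not tested.

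The 3 BTBR vehicle libraries stood apart. The 13 mRNAs of the mitochondrial genome took 0.328 to 0.641% of their fragments against 3.00 to 4.67% in the other 9 libraries. Summed markers of neurons came to 909.7 to 1013 FPKM in C57 vehicle, 862.0 to 1078 in C57 ASIV, 694.7 to 830.8 in BTBR vehicle and 695.3 to 811.6 in BTBR ASIV, with all 6 detected. Summed markers of endothelium and pericytes came to 95.7 to 125.0 FPKM in BTBR vehicle, above every other library. They came to 70.8 to 81.9 in C57 vehicle, 59.1 to 73.1 in C57 ASIV and 59.0 to 80.4 in BTBR ASIV. For every other marker list BTBR vehicle overlapped BTBR ASIV. Between the strains under vehicle 22.3% of all genes were called higher and 20.8% lower. Of the neuron markers 0 were called higher and 1 lower. The counts were 1 and 1 of 5 astrocyte markers, 1 and 0 of 5 oligodendrocyte markers and 0 and 2 of 5 microglia markers. They were 1 and 0 of 4 endothelium and pericyte markers, and 0 and 1 of 4 erythrocyte markers. None of 2 tested choroid plexus markers or 4 striatal neuron markers was called. The part of these shifts in the results below was not tested, except where a value without the mitochondrial genes is given.

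Between the strains under vehicle, 11 of the 32 genes (34.4%) were called at an adjusted p under 0.05, against 43.1% of the 13586 genes tested. In BTBR 5 were higher (all genes 22.3%) and 6 lower (all genes 20.8%). Snord91a, its neighbour Gm22771, Hist1h2bc, Gm22540, Hist3h2ba and Gm23458 were lower, and Snord55, Snora31, Hist1h1c, Snora57 and Hist1h4h were higher. ASIV in BTBR mice gave 8 calls (25%, against 29.1% of all genes). Here Snord91a, Gm22771, Hist3h2ba, Hist1h2bc and Snord104 rose (5 genes, all genes 13.7%), and Snora31, Hist1h1c and Snord55 fell (3 genes, all genes 15.4%). These comparisons share the BTBR vehicle libraries, so a value that is off in those 3 libraries moves both in opposite directions.

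ASIV in C57 mice gave 0 calls among the 32 genes (0% of all genes), with 0 at an unadjusted p under 0.05 and 0 by voom. The strains under ASIV, a comparison without the BTBR vehicle libraries, also gave 0 calls (2.53% of all genes, 1.31% higher and 1.22% lower), with 3 at an unadjusted p under 0.05 and 0 by voom. The interaction, which asks whether ASIV acted differently in the strains, was called for 5 genes (15.6%, against 14.3% of all genes). Snord91a, Hist3h2ba and Hist1h2bc had a positive term (3 genes, all genes 6.91%), and Snora31 and Hist1h1c a negative one (2 genes, all genes 7.36%).

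The shares called were near or below those of all genes in each comparison. The 3 libraries of one group lay wholly above or below those of the other for 13 of 32 genes between the strains under vehicle (53.3% of all genes), for 10 under ASIV in BTBR (39.1%), for 3 between the strains under ASIV (26.2%) and for 4 under ASIV in C57 (13.1%). The median standard error of a log2 difference was 0.335 for these genes and 0.123 for all genes tested. The median log2 difference of the 32 genes was 0.02 between the strains under vehicle (all genes 0.01) and -0.02 for ASIV in BTBR (all genes -0.01). Log2 differences throughout are of FPKM + 1, which understates changes of low genes, and carry the standard error of the limma fit. Adjusted p-values are those of limma with Benjamini-Hochberg adjustment over all 13586 genes.

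**Figure D1:**
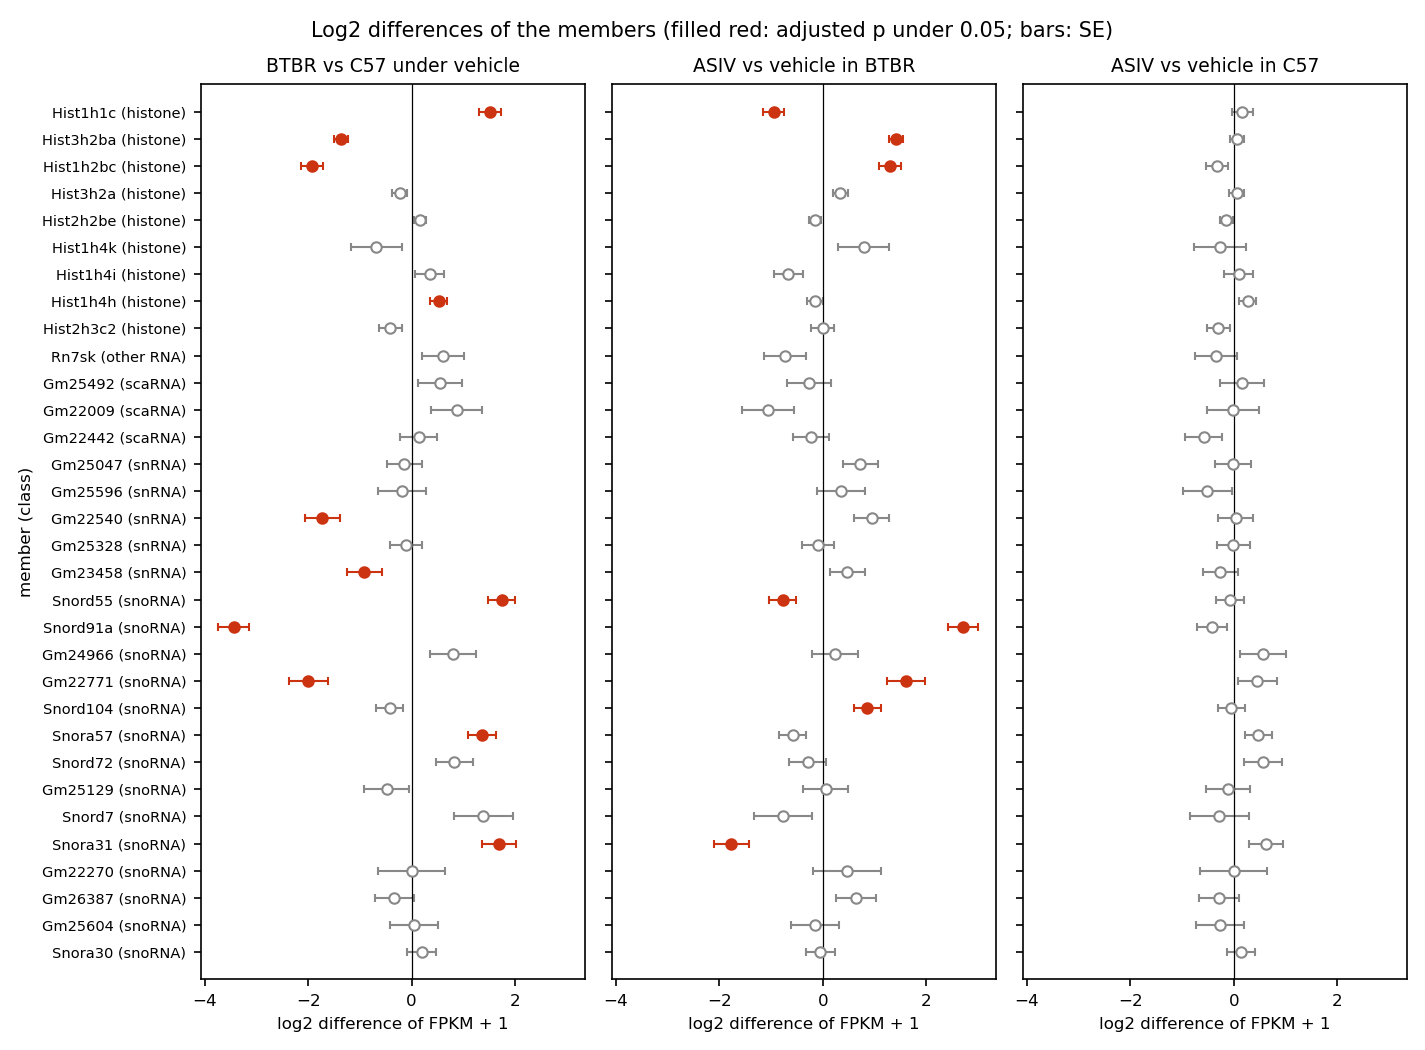
Each row is 1 of the 32 genes with its class, and each panel 1 comparison; points are log2 differences of FPKM + 1 on the horizontal axis, bars are standard errors and filled red points have an adjusted p under 0.05. Filled points lie on both sides of 0 in the first panel (11 genes) and the second (8 genes), and no point is filled for ASIV in C57.

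Snord91a and Gm22771 were lower in BTBR under vehicle and rose under ASIV in BTBR, and their sequences are shown because both lie in introns of Tsr1 and resemble each other. Tsr1 encodes a factor that assembles the small ribosomal subunit. On GRCm38 (mm10) Snord91a is at chr11:74905424-74905516 and Gm22771 at chr11:74906109-74906199, both on the plus strand, inside Tsr1 at chr11:74898071-74909342. Their RNAs are 68.8% identical, and capitals mark the longest stretch they share, 24 bases.
Snord91a: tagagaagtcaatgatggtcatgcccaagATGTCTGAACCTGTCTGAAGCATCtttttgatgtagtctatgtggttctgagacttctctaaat
Gm22771: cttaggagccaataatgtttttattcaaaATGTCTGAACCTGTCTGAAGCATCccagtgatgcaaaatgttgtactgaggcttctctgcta

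Snord91a, a box C/D snoRNA, was measured at 47.8, 45.8 and 45.6 FPKM in C57 vehicle, 22.7, 36.7 and 48.7 in C57 ASIV, 2.38, 2.52 and 5.99 in BTBR vehicle and 23.9, 34.5 and 25.6 in BTBR ASIV. All 3 BTBR vehicle libraries lay below the other 9, with 4, 4 and 9 fragments against 39 to 83. It was lower in BTBR under vehicle by a log2 difference of -3.44 ± 0.30 (SE, adjusted p 1.19e-05) and rose under ASIV in BTBR by 2.71 ± 0.30 (adjusted p 0.000165). The ASIV effect differed between strains by 3.13 ± 0.42 (adjusted p 0.00168), while in C57 it was -0.42 ± 0.30. The strain difference under ASIV was -0.31 ± 0.30 (adjusted p 0.596).

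Gm22771 was at 8.83, 12.7 and 12.8 FPKM in C57 vehicle, 11.3, 17.2 and 20.3 in C57 ASIV, 3.04, 0.643 and 3.40 in BTBR vehicle and 12.5, 6.07 and 7.72 in BTBR ASIV. As for Snord91a, the BTBR vehicle libraries lay below all others, here on 5, 1 and 5 fragments. It was lower in BTBR under vehicle by -2.00 ± 0.37 (adjusted p 0.00169) and rose under ASIV in BTBR by 1.61 ± 0.37 (adjusted p 0.00892). Its interaction was 1.16 ± 0.53 and did not pass (adjusted p 0.171).

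The mRNA of the shared host was called in neither comparison. Tsr1 stood at 8.84, 8.12 and 8.62 FPKM in C57 vehicle and 8.79, 9.33 and 10.23 in C57 ASIV. It stood at 6.75, 10.02 and 5.95 in BTBR vehicle and 7.16, 7.67 and 7.83 in BTBR ASIV. BTBR vehicle replicates 1 and 3 were the lowest of all 12 libraries, and only replicate 2 made the group overlap the others. Its log2 difference was -0.18 ± 0.14 between the strains under vehicle (adjusted p 0.318) and 0.02 ± 0.14 for ASIV in BTBR (adjusted p 0.912). The ratio of Snord91a to Tsr1 FPKM was 5.45 ± 0.178 in C57 vehicle (SD, n = 3), 3.76 ± 1.10 in C57 ASIV, 0.536 ± 0.410 under vehicle in BTBR and 3.70 ± 0.686 under ASIV in BTBR. That of Gm22771 was 1.35 ± 0.307, 1.71 ± 0.368, 0.362 ± 0.265 and 1.18 ± 0.507 in the same order. The part of host intron fragments in these ratios was not tested. An exact two-sided permutation test of the log2 ratio gave p = 0.1 for both snoRNAs in both comparisons, the smallest p that 3 against 3 libraries allow. The pairs tested were chosen after their values were seen, so this p-value is no separate support. The exact test also gave p = 0.1 for Snord91a with ASIV in C57, where the log2 ratio differed by -0.58, so this smallest p does not set the BTBR vehicle comparisons apart.

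Snord55 and Snora31 differed in the other direction, and Snora31 did so against the mRNA of its host. Snord55 is a box C/D snoRNA, and Snora31 is a box H/ACA snoRNA at chr14:75847905-75848034, in an intron of Tpt1 (chr14:75845093-75848525, plus strand). Tpt1 encodes the translationally controlled tumour protein TCTP. Capitals mark the ACA trinucleotide 3 bases before the 3' end in Snora31 and Snora57, and the C box TGATGA and the D box CTGA in Snord104. Snord104 and Snora57, described below, are printed as examples of snoRNAs outside any gene of their own strand.
Snora31: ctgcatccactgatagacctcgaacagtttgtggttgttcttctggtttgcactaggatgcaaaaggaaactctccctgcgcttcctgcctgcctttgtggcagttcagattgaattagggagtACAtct
Snord104: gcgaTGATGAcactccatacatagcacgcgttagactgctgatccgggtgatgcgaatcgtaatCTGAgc
Snora57: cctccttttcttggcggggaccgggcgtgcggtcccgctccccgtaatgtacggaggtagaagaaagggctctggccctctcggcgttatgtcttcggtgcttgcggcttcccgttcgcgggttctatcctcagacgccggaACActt

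In GENCODE snoRNAs of 60 to 100 bases, a TGATGA in the first 20 bases together with a CTGA in the last 20 stood in 294 of 454 (64.8%) on the RNA strand and in 0 on the other strand. Of the 7 snoRNAs of that length described here, Snord55, Snord104 and Snord7 held both, while Snord91a, Gm22771, Gm24966 and Snord72 held the CTGA only. An ACA 3 bases from the end stood in 216 of 866 snoRNAs of 120 to 150 bases (24.9%; 1.5% on the other strand), and here in Snora57, Snora31, Snora30, Gm22270 and Gm26387 but not in Gm25129 or Gm25604. These matches describe letters only.

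Snord55 was at 16.3, 20.8 and 19.5 FPKM in C57 vehicle, 24.0, 13.5 and 17.3 in C57 ASIV, 47.6, 54.8 and 104.1 in BTBR vehicle and 39.8, 31.5 and 41.7 in BTBR ASIV. Every BTBR library exceeded every C57 library, and the third BTBR vehicle library was the highest. It was higher in BTBR under vehicle by 1.74 ± 0.27 (adjusted p 0.000405). The fall under ASIV in BTBR was -0.78 ± 0.27 (adjusted p 0.0476), a call lost in 16 of 22 other settings. Without BTBR vehicle replicate 3 it was -0.44. Between the strains under ASIV the difference was 1.03 ± 0.27 and just missed the threshold (adjusted p 0.0700), passing with only the libraries compared (adjusted p 0.0446), without BTBR vehicle replicate 3 (adjusted p 0.0112) or without C57 ASIV replicate 1 (adjusted p 0.0453).

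Snora31 was at 2.06, 1.87 and 2.37 FPKM in C57 vehicle, 6.26, 3.01 and 2.75 in C57 ASIV, 8.08, 6.76 and 12.8 in BTBR vehicle and 2.09, 3.40 and 0.832 in BTBR ASIV. The BTBR vehicle libraries lay above all others in FPKM, on 15 to 27 fragments. BTBR vehicle replicate 2 and C57 ASIV replicate 1 both held 15 fragments, so the order of those libraries rests on depth. It was higher in BTBR under vehicle by 1.68 ± 0.33 (adjusted p 0.00210), fell under ASIV in BTBR by -1.76 ± 0.33 (adjusted p 0.00274) and had an interaction of -2.39 ± 0.47 (adjusted p 0.00828). Tpt1 mRNA changed by -0.39 ± 0.10 (adjusted p 0.00875) and 0.48 ± 0.10 (adjusted p 0.00456) in the same 2 comparisons, opposite to its snoRNA, and its interaction was 0.48 ± 0.15 (adjusted p 0.0460). The ratio of Snora31 to Tpt1 was 0.0154 ± 0.00169 in C57 vehicle, 0.0297 ± 0.0155 in C57 ASIV, 0.0876 ± 0.0238 under vehicle in BTBR and 0.0147 ± 0.00904 under ASIV in BTBR (SD, n = 3). The exact permutation test of the log2 ratio again gave p = 0.1, the smallest possible, for the strains under vehicle (a difference of 2.48), for ASIV in BTBR (-2.78) and also for ASIV in C57 (0.83).

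**Figure D2:**
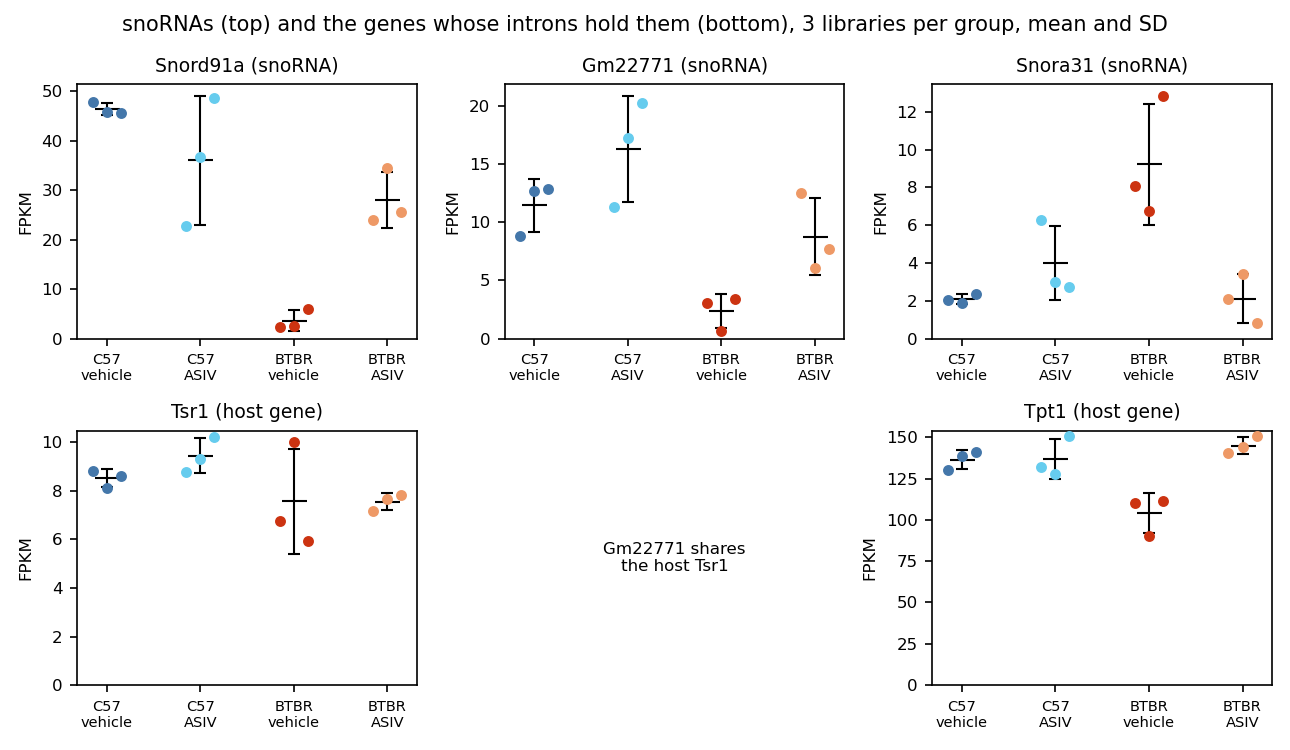
FPKM of 3 snoRNAs (top) and of their host genes (bottom) in each library, 3 points per group, with the mean and SD as bars; every axis starts at 0. Snord91a and Gm22771 are lowest in BTBR vehicle, and Snora31 is highest where Tpt1 is lowest. The BTBR vehicle libraries of Tsr1 overlap each of the other groups through replicate 2 only.

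Snora57, a box H/ACA snoRNA at chr19:8888538-8888685 on the minus strand, lies opposite an intron of Lbhd1. It was at 3.62, 2.88 and 4.57 FPKM in C57 vehicle, 5.86, 5.29 and 5.23 in C57 ASIV, 13.4, 5.93 and 15.9 in BTBR vehicle and 8.07, 7.09 and 5.85 in BTBR ASIV. The groups did not overlap between the strains under vehicle, where it was higher in BTBR by 1.36 ± 0.27 (adjusted p 0.00189), but BTBR vehicle replicate 2 lay among the ASIV libraries. For ASIV in BTBR it was -0.58 ± 0.27 (adjusted p 0.122), and without that replicate it passed (adjusted p 0.00145), as did the interaction (adjusted p 0.00275). Snord104, a box C/D snoRNA at chr11:106500993-106501062 within no other gene, was at 7.66, 7.82 and 6.15 FPKM in C57 vehicle, 5.42, 8.79 and 6.81 in C57 ASIV, 7.11, 6.69 and 2.65 in BTBR vehicle and 11.6, 9.47 and 9.27 in BTBR ASIV. It rose under ASIV in BTBR by 0.86 ± 0.26 (adjusted p 0.0289). Without BTBR vehicle replicate 3, its lowest library with 3 fragments, the difference was 0.49 and did not pass, nor did it pass without any 1 BTBR ASIV library (adjusted p up to 0.108 over all settings).

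The other 8 snoRNAs were called in none of the 5 comparisons. Gm24966 lies in an intron of Snhg14, the long noncoding RNA of the imprinted Prader-Willi region that carries many brain snoRNAs. It was at 5.45 to 6.16 FPKM in C57 vehicle, 8.29 to 10.3 in C57 ASIV, 6.30 to 22.7 in BTBR vehicle and 6.99 to 24.0 in BTBR ASIV, and the BTBR libraries varied over several-fold. Its difference between the strains under vehicle was 0.79 ± 0.44 and did not pass (adjusted p 0.174), though the groups did not overlap. Snord72, in an intron of the ribosomal protein gene Rpl37, differed by 0.82 ± 0.36 (adjusted p 0.0887), passing without BTBR vehicle replicate 2 (adjusted p 0.0428) or C57 ASIV replicate 3 (adjusted p 0.0482). Rpl37 mRNA was lower, with -0.64 ± 0.17 (adjusted p 0.0084), and rose under ASIV in BTBR by 0.85 ± 0.17 (adjusted p 0.00265). Snord7, in an intron of AA465934, differed by 1.39 ± 0.57 (adjusted p 0.0729), passing without C57 vehicle replicate 2 (adjusted p 0.0217) or C57 ASIV replicate 3 (adjusted p 0.038). Its host was at 2.95, 3.05 and 26.7 FPKM in BTBR vehicle, so that 1 library sets the mean of that group. Gm25129, in an intron of Snhg11, a snoRNA host gene that the annotation used here lists as protein-coding, differed by -0.48 ± 0.43 (adjusted p 0.398). Gm22270 and Gm26387 both lie in introns of the ribosomal protein gene Rpl5 and differ by 7 edits (94.7% identity), so their fragments may be exchanged in counting. Their differences were -0.00 ± 0.65 and -0.34 ± 0.38 on 1 to 19 fragments per library. Gm26387 under ASIV in BTBR was 0.64 ± 0.38 (adjusted p 0.23) and passed without BTBR vehicle replicate 1 (adjusted p 0.0182), as did its interaction (adjusted p 0.0376). Snora30 and Gm25604 differed by 0.19 ± 0.28 and 0.05 ± 0.46.

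Of the 22 snoRNAs, scaRNAs and snRNAs, 15 lay inside a gene of the same strand, namely 11 snoRNAs, 3 scaRNAs and 1 snRNA. A further 5 lay inside a gene of the other strand only and 2 inside no other gene, and 0 overlapped an exon of the gene around them. Compared here are 13 pairs with 11 hosts, in which both sides were tested. Between the strains under vehicle the small RNA and its host had the same sign in 6 of 13 pairs. Both were called in 2 pairs, in opposite directions for Snora31 with Tpt1 and in the same direction for Gm23458 with Bcl7a. Only the small RNA was called in 2 pairs (Snord91a and Gm22771 with Tsr1), and only the host in 1 (Snord72 with Rpl37). For ASIV in BTBR the signs agreed in 7 of 13 pairs, and both were called in 1, Snora31 with Tpt1, in opposite directions. Only the small RNA was called in the 2 Tsr1 pairs, and only the host for Snord72 with Rpl37. Whether a difference within a pair exceeded that of other pairs was not tested.

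**Figure D3:**
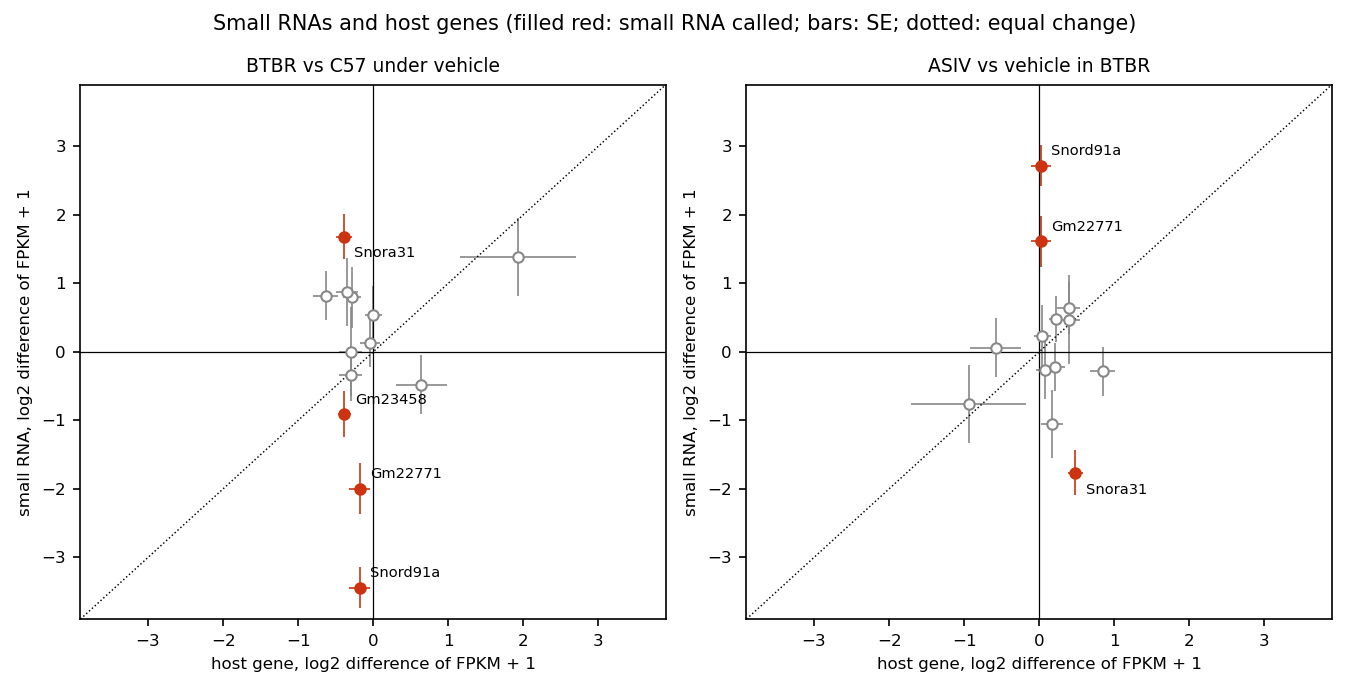
Each point is 1 of the 13 pairs of a small RNA (vertical axis) and its host gene (horizontal axis), as log2 differences of FPKM + 1 with standard errors; filled red points are called small RNAs and the dotted line is an equal change. Snord91a and Gm22771 lie near 0 on the host axis in both panels, and Snora31 lies on the opposite side of 0 from its host.

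None of the 3 scaRNAs was called. Gm22009 (in Kpna4, an importin gene) was at 1.09 to 3.01 FPKM in C57 vehicle, 1.58 to 1.91 in C57 ASIV, 5.48, 8.19 and 1.08 in BTBR vehicle and 0.633 to 2.74 in BTBR ASIV. Without BTBR vehicle replicate 3, the low one, it was called between the strains under vehicle (adjusted p 0.00685) and for ASIV in BTBR (adjusted p 0.0061); with it the differences were 0.87 ± 0.50 (adjusted p 0.186) and -1.06 ± 0.50 (adjusted p 0.136). Gm25492 (in Bud23, an rRNA methyltransferase gene) and Gm22442 (in the chromatin remodeller gene Chd3) differed by 0.54 ± 0.42 and 0.13 ± 0.35 between the strains under vehicle.

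Each of the 5 snRNAs was compared with the Rnu6, Rnu1b1, Rnu1a1, Rnu2-10, Rnu5g, Rnu11, Rnu12 and Rnu7 genes, and only the closest is given. For 4 the closest was Rnu6, a gene of U6, the catalytic RNA of the spliceosome. For 1 it was Rnu1b1, a gene of U1, which recognises the 5' splice site. Identity to Rnu6 was 90.7% for Gm25328, 88.8% for Gm25596, 79.4% for Gm25047 and 61.5% for Gm22540, and identity of Gm23458 to Rnu1b1 was 69.8%. Gm22540 and Gm23458 were the least alike, and their identity to the rest of these genes was no higher. Types of snRNA without a gene among them were not compared. None matches the reference gene in full, and with U6 and U1 present in many copies the counting could split fragments among them, so these levels are uncertain. Gm22540, the snRNA with the largest strain difference under vehicle, lies at chr9:44476416-44476532 on the minus strand, opposite C030014I23Rik.

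Gm22540 was at 3.21, 3.64 and 5.26 FPKM in C57 vehicle, 6.49, 3.35 and 3.05 in C57 ASIV, 0.472, 0.500 and 0.529 in BTBR vehicle and 1.39, 4.25 and 0.924 in BTBR ASIV. Each BTBR vehicle library held 1 fragment, and the group lay below all others. It was lower in BTBR under vehicle by -1.73 ± 0.33 (adjusted p 0.00178). Over the group the level in C57 vehicle was 8.0 times that in BTBR vehicle, from 24 and 3 fragments. The 95% exact interval was 2.43 to 41.5 and covers counting error only. The deposited values hold no 0, so 1 fragment per library is the least that a gene analysed here can show. The interval does not allow for this floor. For ASIV in BTBR the difference was 0.95 ± 0.33 (adjusted p 0.0526), on 14 against 3 fragments, and it passed without BTBR ASIV replicate 3 (adjusted p 0.0211), C57 ASIV replicate 1 (adjusted p 0.0384) or mitochondrial genes (adjusted p 0.0485), with TPM (1.43, adjusted p 0.0295) and with a pseudocount of 0.1 (1.65, adjusted p 0.0176). The strain difference under ASIV was -0.82 ± 0.33 (adjusted p 0.214), passing without BTBR ASIV replicate 2 (adjusted p 0.0217). Gm23458 was at 1.59, 3.96 and 1.46 FPKM in C57 vehicle and 0.327, 0.693 and 1.10 in BTBR vehicle, on 1 to 3 fragments in the latter. It passed by a narrow margin (-0.91 ± 0.34, adjusted p 0.0465), and the call was lost in 11 of 21 other settings. Its host Bcl7a was lower too, by -0.39 ± 0.09 (adjusted p 0.00352). Without C57 vehicle replicate 2, the highest library, the difference of Gm23458 was -0.59 and did not pass. Gm25047, Gm25596 and Gm25328 were called in no comparison, with differences of -0.14 ± 0.34, -0.19 ± 0.47 and -0.10 ± 0.31 between the strains under vehicle. Gm25047 passed for ASIV in BTBR without BTBR vehicle replicate 3 (adjusted p 0.0446).

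Rn7sk lies at chr9:78175303-78175633 on the minus strand. It was at 1.62, 9.74 and 2.79 FPKM in C57 vehicle, 2.79, 3.38 and 2.16 in C57 ASIV, 4.84, 6.01 and 8.04 in BTBR vehicle and 3.11, 3.84 and 3.10 in BTBR ASIV. The second C57 vehicle library was the highest of all 12, and the other 2 of its group lay below all 3 BTBR vehicle libraries. The strain difference under vehicle was 0.60 ± 0.41 (adjusted p 0.259), and without C57 vehicle replicate 2 it was 1.19 and passed (adjusted p 0.00155). For ASIV in BTBR the difference was -0.73 ± 0.41 (adjusted p 0.204) although the groups did not overlap; it passed without C57 vehicle replicate 2 (adjusted p 0.0147) and with only the libraries compared (adjusted p 0.0247). The same C57 vehicle library had the highest share of fragments on the 2 rows classed as rRNA, 0.305% against 0.0825 and 0.114% in the other libraries of its group. That share was 0.0895 to 0.163% in C57 ASIV, 0.198 to 0.236% in BTBR vehicle and 0.0739 to 0.177% in BTBR ASIV. Rn7sk and the rRNA rows were thus both high in that library and in BTBR vehicle, and the part of the rRNA share in the Rn7sk values was not tested.

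**Figure D4:**
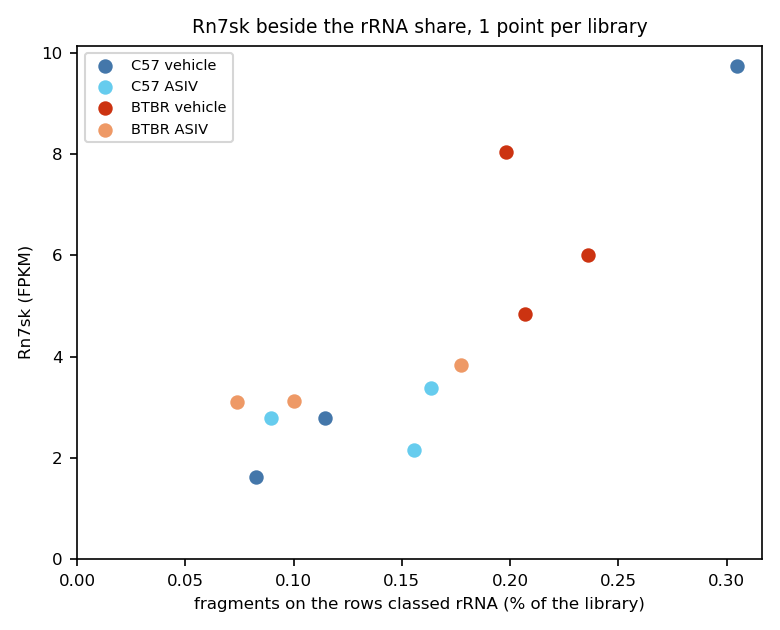
Each point is 1 library, with the share of its fragments on the rows classed rRNA (percent, horizontal axis) and the FPKM of Rn7sk (vertical axis), coloured by group. The C57 vehicle library at 0.305% and 9.74 FPKM stands apart from its group, and the 3 BTBR vehicle libraries lie at 0.198 to 0.236% and 4.84 to 8.04 FPKM.

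Among the 9 histone genes, the strain comparison under vehicle called 4 (all genes 43.1%) and ASIV in BTBR called 3 (all genes 29.1%). Hist1h1c encodes a linker histone, Hist3h2ba and Hist1h2bc encode core histones of the H2B type, and Hist1h4h encodes histone H4. Hist1h1c on one side and Hist3h2ba and Hist1h2bc on the other moved in opposite directions in both comparisons.

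Hist1h1c (chr13:23738808-23740367) was at 11.4, 13.7 and 13.6 FPKM in C57 vehicle, 18.1, 11.3 and 15.05 in C57 ASIV, 48.4, 33.7 and 35.6 in BTBR vehicle and 14.3, 20.8 and 25.2 in BTBR ASIV. All 3 BTBR vehicle libraries lay above the other 9. It was higher in BTBR under vehicle by 1.52 ± 0.21 (adjusted p 0.000158), fell under ASIV in BTBR by -0.95 ± 0.21 (adjusted p 0.00541) and had an interaction of -1.12 ± 0.29 (adjusted p 0.0268). The interaction did not pass without C57 vehicle replicate 1 or 2, or C57 ASIV replicate 1 or 3 (adjusted p up to 0.0666). With 315 to 1366 fragments per library it had the most fragments of the 32 genes.

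Hist3h2ba (chr11:58948920-58949533) was at 25.4, 25.5 and 19.6 FPKM in C57 vehicle, 20.8, 25.1 and 27.8 in C57 ASIV, 9.90, 7.53 and 8.06 in BTBR vehicle and 25.7, 22.7 and 24.5 in BTBR ASIV. The BTBR vehicle libraries lay below all others, and the BTBR ASIV libraries lay within the C57 range. It was lower in BTBR under vehicle by -1.37 ± 0.13 (adjusted p 1.62e-05), rose under ASIV in BTBR by 1.42 ± 0.13 (adjusted p 4.73e-05) and had an interaction of 1.35 ± 0.19 (adjusted p 0.00168). Hist3h2a, its neighbour in the same cluster (chr11:58954685-58956830), was at 3.5 to 3.9 FPKM in C57 vehicle, against 4.2, 2.46 and 2.48 in BTBR vehicle. Its difference was -0.24 ± 0.14 (adjusted p 0.190), and without BTBR vehicle replicate 1 it passed (adjusted p 0.00433), as it did for ASIV in BTBR (adjusted p 0.00212). Hist3h2a overlaps an exon of Trim17 on the same strand, so its reads cannot be fully told apart from those of Trim17.

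Hist1h2bc (chr13:23684199-23692908) was at 16.0, 18.8 and 16.3 FPKM in C57 vehicle, 12.8, 13.6 and 13.8 in C57 ASIV, 4.35, 3.09 and 3.85 in BTBR vehicle and 11.7, 15.5 and 6.59 in BTBR ASIV. The BTBR vehicle libraries were again the lowest. It was lower in BTBR under vehicle by -1.93 ± 0.21 (adjusted p 4.1e-05), rose under ASIV in BTBR by 1.30 ± 0.21 (adjusted p 0.00109) and had an interaction of 1.63 ± 0.30 (adjusted p 0.00593). Hist2h2be, a further H2B gene, was at 3.30 to 3.83 FPKM in C57 vehicle and 3.66 to 4.56 in BTBR vehicle, with a difference of 0.16 ± 0.12 (adjusted p 0.292).

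Hist1h4h was at 1.14, 1.81 and 1.05 FPKM in C57 vehicle and 2.00, 2.74 and 2.24 in BTBR vehicle, and was higher in BTBR by 0.52 ± 0.16 (adjusted p 0.02). This call was lost by voom and without C57 vehicle replicate 1 or 3 or BTBR vehicle replicate 2 (adjusted p up to 0.0978). The other H4 genes, Hist1h4k and Hist1h4i, differed by -0.68 ± 0.50 and 0.35 ± 0.28, and the H3 gene Hist2h3c2 by -0.41 ± 0.22. None of these 3 was called in any comparison, though Hist1h4i passed for ASIV in BTBR without BTBR ASIV replicate 2 (adjusted p 0.00556).

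**Figure D5:**
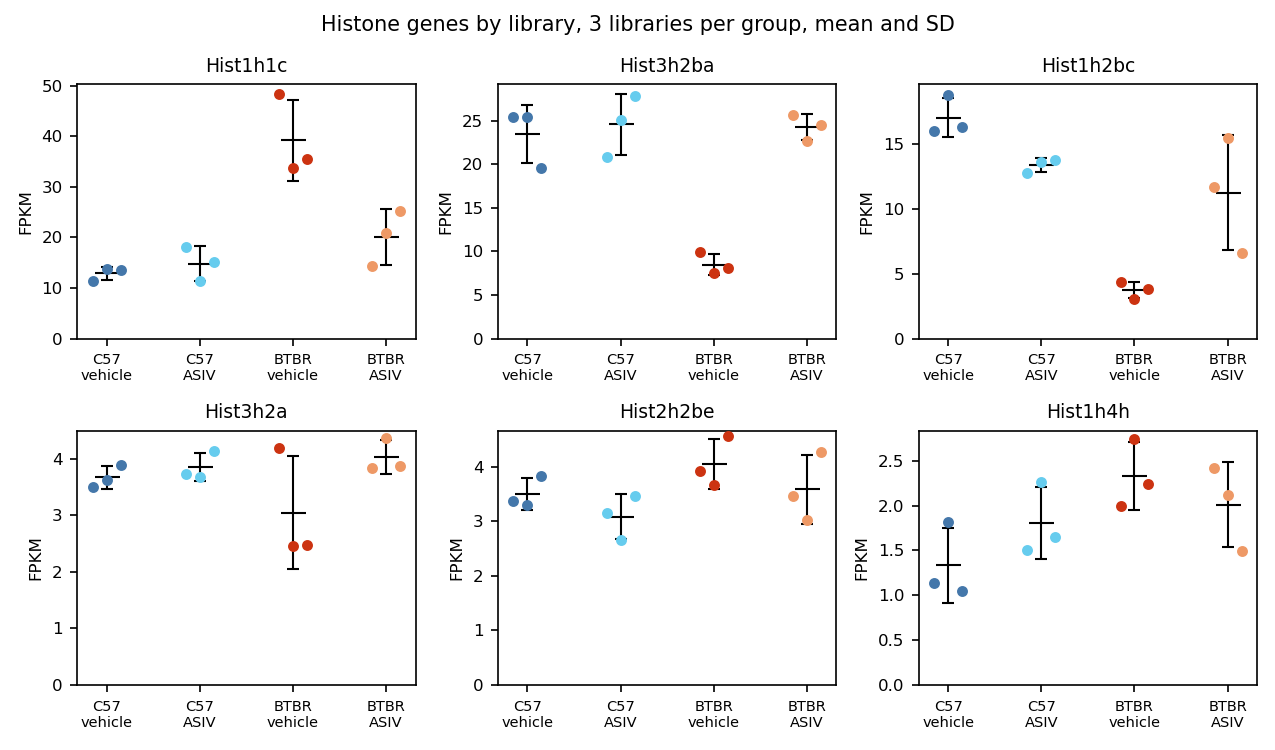
FPKM of 6 histone genes in each library, 3 points per group, with the mean and SD as bars; every axis starts at 0. In BTBR vehicle Hist1h1c is at its highest (33.7 to 48.4 FPKM) and Hist3h2ba and Hist1h2bc at their lowest, while Hist3h2a and Hist2h2be overlap between groups.

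In the annotated transcripts the histone stem-loop was found in 6 of the 9 genes. Bases of the annotated transcript that follow it numbered 46 in Hist1h4h, 169 in Hist3h2ba, 330 in Hist1h4i, 377 in Hist2h3c2, 840 in Hist1h1c and 1643 in Hist3h2a. The annotated ends of the latter genes thus lie well past the stem-loop. It was not found in the annotated Hist1h2bc, Hist2h2be or Hist1h4k transcripts. The called genes were on both sides of this division, Hist1h1c, Hist3h2ba and Hist1h4h with a stem-loop in the annotated transcript and Hist1h2bc without one there. The search used a fixed sequence pattern without mismatches, and the annotated Hist1h4k transcript, at 312 bases, was the shortest of the 9. A stem-loop not found may thus lie past the annotated end or differ from the pattern. Transcript forms outside the annotation were not searched.

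The mRNAs of proteins that build and use these RNAs were compared next, by lists. Of 20 snoRNP core and assembly genes, 6 were higher and 4 lower in BTBR under vehicle, with a median log2 difference of 0.11 (all genes 0.01; 43.1% called). Nop10, a core protein of H/ACA particles, was at 18.7 ± 3.3 FPKM in C57 vehicle against 4.29 ± 1.6 in BTBR vehicle (-1.93 ± 0.22, adjusted p 4.57e-05), and Gar1, of the same particle, was higher (0.55 ± 0.11, adjusted p 0.00187). Under ASIV in BTBR 1 gene of the list was higher (all genes 13.7%) and 4 lower (all genes 15.4%). The differences were 1.59 ± 0.22 for Nop10 and -0.57 ± 0.11 for Gar1. Nolc1, a nucleolar chaperone of snoRNPs, and Naf1, an H/ACA assembly factor, were lower in BTBR under vehicle by -0.54 ± 0.08 and -0.55 ± 0.12. Both were lower between the strains under ASIV too, by -0.46 ± 0.08 (adjusted p 0.0112) and -0.69 ± 0.12 (adjusted p 0.0114). In that comparison 0 genes of the list were called higher and 2 lower (all genes 2.53% called).

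Of 18 Sm and Lsm ring genes, whose proteins bind spliceosomal snRNAs, 6 were higher and 6 lower between the strains under vehicle (all genes 43.1% called). For ASIV in BTBR the counts were 6 and 6 (all genes 29.1%). Snrpf, the Sm protein F, was at 7.63 ± 0.60 FPKM in C57 vehicle, 6.84 ± 1.7 in C57 ASIV, 0.181 ± 0.041 under vehicle in BTBR and 4.19 ± 1.6 under ASIV in BTBR, differing by -2.87 ± 0.19 (adjusted p 1.64e-06) and 2.10 ± 0.19 (adjusted p 4.69e-05). Lsm6 and Lsm8, of the ring that binds U6, differed in the other direction (0.85 ± 0.10 and 0.87 ± 0.11, then -0.55 ± 0.10 and -0.77 ± 0.11). The ring did not move as a whole. Lsm4 went with them (0.90 ± 0.14, then -0.74 ± 0.14), but Lsm2 went the opposite way (-0.44 ± 0.10, then 0.44 ± 0.10). Lsm3, Lsm5 and Lsm7 were called in neither comparison. Of 25 genes for snRNA transcription and 3' processing, 2 were higher and 6 lower between the strains (all genes 43.1% called), and 2 and 1 for ASIV in BTBR (all genes 29.1%). The SNAPc subunit gene Snapc5 was lower in BTBR by -0.81 ± 0.12 and rose under ASIV by 0.58 ± 0.12. Snapc1 was lower by -0.78 ± 0.11 and was at 2.93 ± 0.33 FPKM in BTBR ASIV against 3.08 ± 0.40 in BTBR vehicle. Between the strains under ASIV Snapc1 was lower too, by -0.97 ± 0.11 (adjusted p 0.000274). In that comparison 0 genes of its list were called higher and 1 lower (all genes 2.53% called).

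Of 7 genes of the 7SK particle and P-TEFb, 4 were higher and 0 lower in BTBR under vehicle (all genes 22.3% higher). These were Cdk9, the kinase of P-TEFb (0.86 ± 0.13, adjusted p 0.000223), the 7SK-binding protein gene Larp7 (0.46 ± 0.11), the cyclin gene Ccnt2 (0.34 ± 0.10) and the 7SK capping enzyme gene Mepce (0.27 ± 0.09). For ASIV in BTBR, Cdk9 and Larp7 fell (-0.55 ± 0.13 and -0.42 ± 0.11) and Hexim1, an inhibitor of P-TEFb that binds 7SK, rose (0.27 ± 0.10, adjusted p 0.0491). Genes of RNase P and RNase MRP proteins gave 1 higher and 3 lower of 10 between the strains (all genes 43.1% called) and 2 and 1 for ASIV in BTBR (all genes 29.1%), led by Rpp25l (1.04 ± 0.13, then -0.69 ± 0.13). Telomerase and shelterin genes gave 2 higher and 0 lower of 7, Tinf2 and Terf1, and then 0 and 1, against the same shares of all genes.

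For the histone genes, 14 genes of histone mRNA processing and histone supply gave 3 higher and 4 lower between the strains and 3 and 2 for ASIV in BTBR, where 43.1% and 29.1% of all genes were called; the same shares stand beside the replication-independent histone genes and the cycling markers below. Lsm10, of the U7 particle that cuts histone pre-mRNA, was lower in BTBR (-0.95 ± 0.13, adjusted p 0.000146) and rose under ASIV (0.86 ± 0.13, adjusted p 0.000660). The histone chaperone gene Hira was higher (0.80 ± 0.09) and fell under ASIV (-0.53 ± 0.09). Of 11 replication-independent histone genes, 4 were higher and 2 lower between the strains, and 2 and 2 for ASIV in BTBR. H2afj was at 28.3 ± 1.7 FPKM in C57 vehicle, 26.4 ± 4.1 in C57 ASIV, 65.6 ± 5.7 under vehicle in BTBR and 30.4 ± 3.3 under ASIV in BTBR, and H3f3a, which encodes the replacement histone H3.3, was at 16.7 ± 1.2, 16.4 ± 2.0, 6.49 ± 2.1 and 16.7 ± 3.0. Of 19 markers of cycling cells, 11 were tested and 3 were higher and 1 lower between the strains, with Pcna lower (-0.95 ± 0.15) and E2f1 higher (0.50 ± 0.09). Under ASIV in BTBR these 2 were the only ones called, with 0.45 ± 0.15 and -0.46 ± 0.09.

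With the genes of the mitochondrial genome left out and the libraries rescaled, the strain comparison under vehicle called 11 of the 32 genes, ASIV in BTBR 8 and the interaction 5, the same counts as with them. The genes were not all the same, since for ASIV in BTBR Snord55 no longer passed (adjusted p 0.0579) and Gm22540 did (adjusted p 0.0485).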

How the data were processed

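RNA from mPFC was extracted with Trizol and libraries followed Illumina protocols, per the labels. The submitters' processing notes name HISAT2 2.0.5 and mm10. The sources used here do not give the counter, annotation, strand or library selection. The table deposited by the authors gives FPKM per gene for the 12 libraries, with 0 unmapped columns and no value of 0. Identifiers were matched to GENCODE M21 (17273 of 17283), which gave class, position, exon length and sequence. Fragment numbers came from FPKM, exon length and the step size; 97.6 to 98.0% of values under 50 fragments were whole within 0.02.

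Genes with FPKM of at least 1 in 3 libraries (13586) were fitted as log2(FPKM + 1) with limma 3.58.1 (R 4.3.3; 4 group means, 12 libraries, 8 residual degrees of freedom, trend and robust eBayes), two-sided, with Benjamini-Hochberg adjustment. Ratios to hosts were tested by exact permutation with scipy 1.17.1 in Python 3.11.15. Only Snord91a and Gm22771 with Tsr1 and Snora31 with Tpt1 were tested, chosen after their values were seen. Alternatives were 22 settings: pseudocount, filter, TPM, median-ratio and quantile scaling, removal of mitochondrial genes, voom, replicate block, the libraries compared alone, and leaving out each library.

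Members and lists were chosen with earlier results of these data known. Named were Rn7sk, up to 8 members of the highest mean FPKM per class and up to 5 called members per direction, class and comparison. Also named were those nearest the level, their hosts, and up to 4 genes with the smallest p per list. Other members, and the rest of the ring that binds U6, were named after their values were seen. Some hosts and sequences are not reported here. Cell markers were those of neurons, astrocytes, oligodendrocytes, microglia, endothelium and pericytes, erythrocytes, choroid plexus and striatal neurons.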

Additional observations from a re-analysis of the deposited data

Results flagged for a closer look

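The effect of ASIV differed between the strains for 5 of the 32 genes, by the interaction term of limma with Benjamini-Hochberg adjustment over 13586 genes (14.3% called). Values are the log2 effect in BTBR minus that in C57. It was 3.13 ± 0.42 for Snord91a (adjusted p 0.00168), 1.35 ± 0.19 for Hist3h2ba (adjusted p 0.00168) and 1.63 ± 0.30 for Hist1h2bc (adjusted p 0.00593), which rose under ASIV in BTBR in comparison with 3 BTBR vehicle libraries that lay below the other 9. It was -2.39 ± 0.47 for Snora31 (adjusted p 0.00828) and -1.12 ± 0.29 for Hist1h1c (adjusted p 0.0268), for which the BTBR vehicle libraries lay above the other 9. In C57 the effects were -0.42 ± 0.30, 0.06 ± 0.13, -0.32 ± 0.21, 0.63 ± 0.33 and 0.17 ± 0.21 in the same order, and none passed. For Snora31 the lowest BTBR vehicle library and the highest of the other 9 held 15 fragments each.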

How the results depend on the processing

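Between the strains under vehicle 8 to 13 of the 32 genes were called over the 22 settings. When a library was left out, 9 to 13 were called. The counts were 6 to 10 for ASIV in BTBR, 4 to 7 in the interaction and 0 in every setting for ASIV in C57. The filter of at least 5 FPKM did not test all 32 genes. Of those called between the strains under vehicle, it left Gm22540, Hist1h4h and Gm23458 untested. Between the strains under ASIV the count was 0, but 1 with only the libraries compared (Snord55) and 0 to 1 when a library was left out. With the replicate block the counts were 11, 0, 8, 0 and 5, as without it. Same-numbered libraries had a correlation over 0.1 in 8 of 18 pairs (r from -0.172 to 0.279), and 16 of 36 correlated best with their own number. These values do not settle whether the numbers pair the libraries. The main fit has no block because nothing in the sources used here says that they do. Calls kept in every setting that tested the gene numbered 9 of 11, 6 of 8 and 4 of 5. Lost in some were Hist1h4h (adjusted p up to 0.0978), Gm23458 (0.179), Snord55 (0.141) and Snord104 (0.108) under ASIV in BTBR, and the interaction of Hist1h1c (0.0666, without either C57 vehicle replicate 1 or 2, or C57 ASIV replicate 1 or 3). No called difference changed sign. With a pseudocount of 0.1 Gm22540 was -2.75, Gm23458 -1.57 and Hist1h4h 0.79; voom gave -1.47 and 0.81 for the last pair. Over all genes, calls for ASIV in BTBR were 3954, but 2258 with only the libraries compared; those between the strains under ASIV were 344, but 99 to 643, and in the interaction 1939, but 1166 to 2178, when a library was left out. The interaction has no fit on fewer groups. Fragments per library, under 20 for most small RNAs, limit what could be detected.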
